A study of Mus musculus with 2 samples.

Results

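Genes of apoptosis and of cell cycle arrest were followed through the chromatin loop lists of mouse cerebral cortex after experimental stroke or sham surgery: Bcl2, Bcl2l1, Bcl2l11, Bax, Bbc3, Pmaip1, Casp8, Casp9 and Cdkn1a. They are 9 of the 21883 protein-coding genes with a position on the genome build used (mm10). A loop was assigned to a gene when either of its anchors, the pair of DNA stretches that it joins, lay within 2.5 kb of either end of the gene. This gave 9 of the 14779 loops listed for sham and 13 of the 15592 listed for stroke. In the stroke group (MCAO) the middle cerebral artery was closed with a filament for 1 h, and cortex of the operated side was frozen 6 h after blood flow returned. The sham group underwent the surgery with the filament left out and recovered for as long, 6 h. The labels give no strain, age or transgene, they mention 3 cortices in each group, and the data were deposited as 1 loop list per group. No difference below therefore has a replicate check, no test between conditions was made, and intervals are 95% intervals that, for PETs, shares and ratios, cover counting error only.

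Apoptosis of the mitochondrial route is set by the BCL2 protein family. Bcl2 and Bcl2l1 (BCL-XL) encode guardians that hold the outer mitochondrial membrane intact, BH3-only proteins such as those of Bcl2l11 (BIM), Bbc3 (PUMA) and Pmaip1 (NOXA) neutralise the guardians, and Bax encodes an effector that opens the membrane. The released cytochrome c activates caspase-9, the product of Casp9, while caspase-8, the product of Casp8, starts the route from death receptors. Cdkn1a encodes p21, an inhibitor of cyclin-dependent kinases that is induced by p53, as are Bbc3, Pmaip1 and Bax. In the brain these genes are known for their part in neuronal death after ischaemia.

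The strength of a loop is given as its number of paired-end tags (PETs), sequenced ligation products that join its anchors. The total was 34974213 PETs in the sham library and 40550536 in the MCAO library, 1.16 times as many. Only loops of at least 10 PETs were listed, which is 0.286 PETs per 1000000 in sham and 0.247 in MCAO, so contacts below it go unseen. The lists hold no expression values, and the tissue label could not be checked against marker RNA. Loops counted at marker genes, in sham and in MCAO, numbered 14 and 16 over 7 neuronal genes, 7 and 14 over 6 astrocyte genes, 3 and 4 over 6 microglial genes, 2 and 2 over 7 leukocyte genes and 3 and 2 over 5 endothelial genes. In tissue of mixed cells, a loop in fewer cells and a weaker loop in each cell cannot be told apart, and the part of cell makeup in the values below was not tested.

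Loops were listed at 5 of the 9 genes in each library, and not at the same ones. Bcl2 had 4 loops in sham and 3 in MCAO, Bcl2l1 had 1 and 3, Bax had 1 and 1, and Cdkn1a had 1 and 4. Bcl2l11 had loops in MCAO alone, 0 and 2, and Casp8 in sham alone, 2 and 0. Bbc3, Pmaip1 and Casp9 had none in either list. Of all genes, 43.0% had a gene-end loop in sham, 47.9% in MCAO and 38.4% in neither. More loops in MCAO were counted at 3 of 9 genes and fewer at 2, beside 28.7% and 20.7% of all genes. The median difference was 0 for these genes and 0 for all genes.

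**Figure D1:**
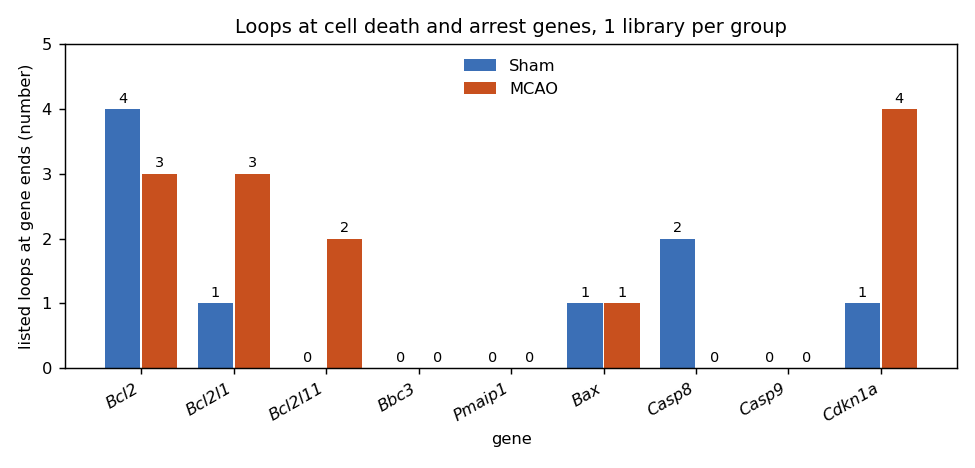
Number of listed loops (vertical axis) with an anchor within 2.5 kb of an end of each gene (horizontal axis) in the Sham and MCAO libraries, 1 library per group and so without error bars. Cdkn1a went from 1 to 4 and Bcl2l1 from 1 to 3, Casp8 from 2 to 0, and 3 genes had no loop in either library.

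The direction of the excess in MCAO depended on the PET minimum. To scale it for depth, the minimum was raised in MCAO alone to 12 PETs, while sham kept 10. This is the lowest whole number to reach the sham minimum, at 0.296 PETs per 1000000 against 0.286. With it 8 MCAO loops were left against the 9 of sham, and the direction of the total turned. Gene-loop pairs over all genes turned as well, from 15296 in sham and 18573 in MCAO to 15296 and 12699. More loops in MCAO then stood at 2 of the 9 genes and fewer at 2, beside 18.5% and 26.6% of all genes. With at least 15 PETs in both libraries 5 sham and 4 MCAO loops were left, 4 and 1 of them at Bcl2, 1 and 2 at Bcl2l1 and 0 and 1 at Cdkn1a. More loops were then counted at 2 of the 9 genes and fewer at 1, beside 18.8% and 12.6% of all genes. Loops of 10 or 11 PETs made up 3 of the 9 sham loops and 5 of the 13 MCAO loops.

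The anchors of these loops lay mostly at the 5′ ends of the genes, a property that the assignment did not use. The gene-side anchor reached the 5′ end in 21 of the 22 loops, 8 of 9 in sham and 13 of 13 in MCAO. Over all genes with a known strand it did so in 70.5% of sham and 71.4% of MCAO gene-loop pairs. Loops of the same gene often shared nearly the same gene-side anchor. Neither these counts nor the intervals below therefore rest on independent loops. The 3′ end was reached in 5 of the 22, in 4 of which the anchor reached both ends of a short gene. The partner anchor, at the other end of the loop, lay at an end of another protein-coding gene in 5 of 9 sham loops and 6 of 13 MCAO loops, beside 35.0% and 34.4% of all gene-end loops. A counterpart, meaning a loop of the other list whose anchor midpoints both lay within 1 anchor width, was found for 5 of 9 sham loops (55.6%, 21.2 to 86.3) and 5 of 13 MCAO loops (38.5%, 13.9 to 68.4). Among all gene-end loops 34.3% and 28.2% had one. The median span was 242 kb in sham (55.5 to 575) and 162 kb in MCAO (50.01 to 242), and these intervals of the median overlapped. The loops themselves spanned 42.2 to 656 kb in sham and 32.8 to 286 kb in MCAO. Over all gene-end loops the medians were 358 kb and 291 kb.

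Bcl2 (chromosome 1, 106538176 to 106714290, minus strand, gene ID 12043) had the most loops of the 9 genes in the 2 libraries together. Every loop left its 5′ end in the direction of the gene, towards or past its far end. The 250 bases before its start are shown because every Bcl2 anchor but 1 in sham covered that start. Capitals mark the GC box letters GGGCGG or their reverse complement CCGCCC, which bind factors of the Sp family. The sequence is of RefSeq, build GRCm38.p6, minus strand, chr1:106714291-106714540.
Bcl2: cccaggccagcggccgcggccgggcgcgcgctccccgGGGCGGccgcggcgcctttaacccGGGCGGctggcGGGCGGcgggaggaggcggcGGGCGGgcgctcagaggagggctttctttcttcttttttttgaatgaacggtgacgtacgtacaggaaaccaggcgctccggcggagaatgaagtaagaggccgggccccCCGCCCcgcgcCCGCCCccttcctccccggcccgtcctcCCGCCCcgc
It held 7 GC boxes and a G and C content of 74.8%. Of the 32851 promoter windows of this length in the table, 32.7% held at least 1 GC box. Further motifs were searched on both strands, and no match overlapped one of another motif. The TATA box TATAAA stood in 12.4% of all windows, CATG repeated after 6 bases of any kind in 0.490%, and CCA, AG and GGC with 2 bases of any kind between them, a core for the insulator protein CTCF, in 2.07%. None of these stood in the Bcl2 window.

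In sham, the Bcl2 loops carried 21, 26, 30 and 33 PETs, and in MCAO they carried 11, 14 and 24. All 4 sham values lay above 2 of the 3 MCAO values, and the MCAO value of 24 lay within the sham range. The strongest sham loop ran 293 kb to an anchor at 106415501 to 106435400, beyond the far end of Bcl2, where the RefSeq table lists no gene. Its counterpart in MCAO had 14 PETs, a ratio per 1000000 PETs of 0.366 (0.181 to 0.703) of MCAO over sham. The second pair joined the 5′ end to a part of the Bcl2 gene body around the microRNA gene Mir3473f, over 149 kb in sham and 166 kb in MCAO. It carried 21 PETs in sham and 11 in MCAO, a ratio of 0.452 (0.197 to 0.980).

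In both pairs the anchors were also wider in sham, and a wider anchor collects PETs from more sequence. In the first pair the gene-side anchor measured 38.3 kb in sham and 9.73 kb in MCAO, and the partner anchor 19.9 kb and 5.72 kb. In the second pair the gene-side anchor measured 14.0 kb and 3.39 kb. Read coverage at the gene-side anchor of these pairs was higher in MCAO, with 0.773 reads per kb per 1000000 PETs in sham and 1.10 in MCAO for the first pair and 0.967 and 1.55 for the second. These coverage values are averages over stretches of unlike width and do not compare the same DNA. The part of anchor width in the lower PET numbers of MCAO, and in its higher coverage, was not tested.

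The longest Bcl2 loop in sham, 656 kb with 30 PETs, reached an end of the zinc finger gene Zcchc2. Its MCAO counterpart had 19 PETs, a ratio of 0.546 (0.291 to 1.00), but did not count as a Bcl2 loop. The partner anchor of this pair was wider in sham, 66.0 kb against 41.0 kb in MCAO. The part of that width in the ratio was not tested. The gene-side anchors were of similar width, 55.4 kb in sham and 53.9 kb in MCAO. Their coverage was 0.725 and 0.645 reads per kb per 1000000 PETs, lower in MCAO as the PETs were. The MCAO anchor began at 106721880, past the 5′ end of Bcl2 and over most of its neighbour Kdsr, an enzyme gene of sphingolipid synthesis, while the sham anchor at 106690985 to 106746432 covered ends of both genes. The remaining sham loop, 555 kb with 26 PETs, reached Phlpp1, which encodes a phosphatase of the kinase AKT, and had no counterpart. Its nearest MCAO loop was the one just described, with the partner midpoint 107 kb away. The MCAO loop with no counterpart, 190 kb with 24 PETs, ended at 106510077 to 106535028, outside the far end of Bcl2 and over the non-coding RNA gene Gm41928. The nearest sham loop was the one within the Bcl2 gene body, 34.3 kb away at the partner side. With a window of 10 kb at gene ends Bcl2 had 4 loops in sham and 5 in MCAO, and with no window it had 3 and 3, so the direction of its difference depended on the window.

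At Bcl2l1 (chromosome 2, 152758732 to 152833803, minus strand, gene ID 12048) the sham list held 1 loop of 22 PETs and the MCAO list 3, of 12, 16 and 35 PETs. The sham loop and the strongest MCAO loop were counterparts and joined the 5′ end of Bcl2l1 to H13, the gene of the signal peptide peptidase, over 135 kb in sham and 132 kb in MCAO. Their gene-side midpoints lay 0.219 kb apart. The ratio of MCAO over sham was 1.37 (0.783 to 2.46) and its interval held 1, and coverage at the gene-side anchor was 1.26 and 1.27 reads per kb per 1000000 PETs. The MCAO partner anchor was wider, 19.8 kb against 9.54 kb, and reached ends of H13 and of Mcts2, an imprinted gene within H13. This was the loop with the most PETs in either library among the 22, and 5.13% of all MCAO loops had more.

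The other 2 MCAO loops at Bcl2l1 had no counterpart. The first, 12 PETs over 162 kb, ended at 152667876 to 152672863, at the opposite end of H13. Its gene-side midpoint lay 1.26 kb from that of the sham loop and its partner midpoint 25.9 kb from it. The second, 16 PETs over 43.8 kb, stayed inside Bcl2l1 and joined its 5′ end to 152781889 to 152790262 in the gene body. The 3 starts that RefSeq gives for Bcl2l1 all lay within the sham anchor and within that of its counterpart. Both of the other MCAO anchors covered 2 of the 3.

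**Figure D2:**
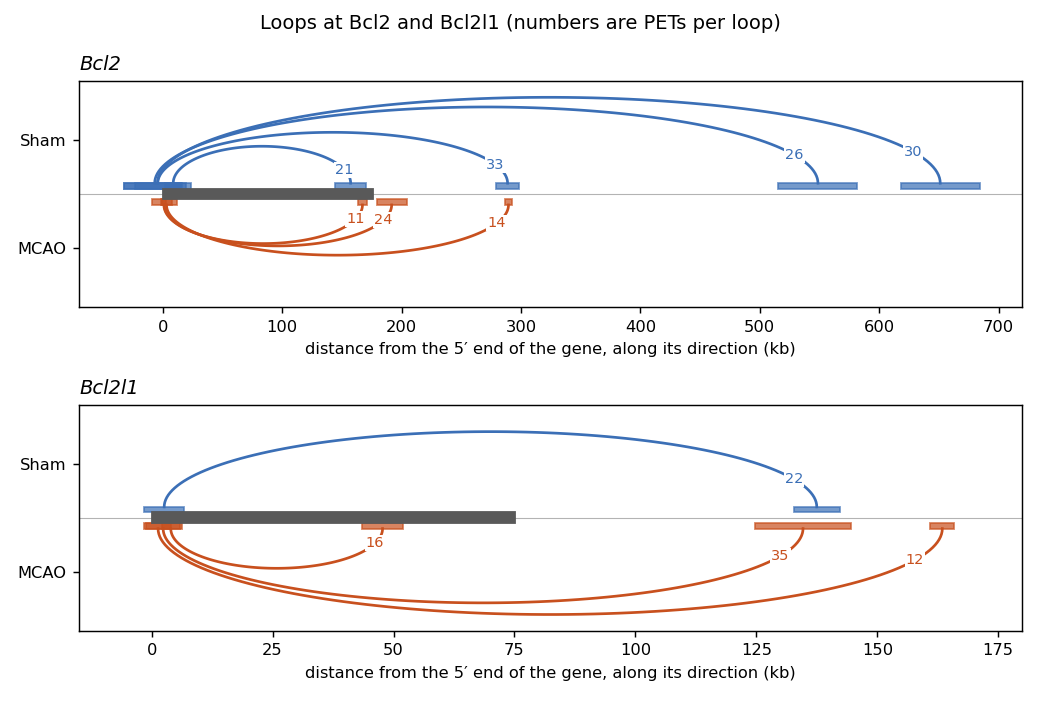
Loops at Bcl2 (top) and Bcl2l1 (bottom), with the distance in kb from the 5′ end along the direction of the gene on the horizontal axis. Arcs above the line are sham loops and arcs below it MCAO loops, the number on each is its PETs, coloured bars are anchors to scale and the grey bar is the gene. At Bcl2 the longest arcs, of 26 and 30 PETs, are drawn for sham alone. The loop of 30 PETs has an MCAO counterpart of 19 PETs, not drawn because its anchor lies beyond 2.5 kb of Bcl2. At Bcl2l1 the loops of 22 and 35 PETs end near each other.

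Of the BH3-only genes, Bcl2l11 (chromosome 2, 128126038 to 128162547, plus strand, gene ID 12125) was the only one of the 3 with loops, and these were in MCAO. One, with 10 PETs, ran 233 kb upstream to 127888250 to 127897612 inside Acoxl, an acyl-CoA oxidase-like gene whose far end overlaps the 5′ end of Bcl2l11. The other, with 11 PETs, ran 256 kb downstream to 128371381 to 128383209 inside Morrbid, a long non-coding RNA known to restrain Bcl2l11 in myeloid cells. These are the listing minimum and 1 PET above it, and neither loop remained with a minimum of 12 PETs in MCAO. Since Acoxl ends at 128126252, inside the gene-side anchor of the first loop and within 2.5 kb of that of the second, the loops cannot be given to 1 of the 2 genes. The nearest sham anchor was 107 kb from an end of Bcl2l11, and 3 sham loops and 2 MCAO loops enclosed the gene, with an anchor on either side of it.

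Bbc3 (chromosome 7, 16308398 to 16318334) and Pmaip1 (chromosome 18, 66458604 to 66465558) had no listed loop at 2.5 kb. The nearest anchor to an end of Bbc3 was 122 kb away in sham and 64.7 kb away in MCAO, and 1 sham loop and 5 MCAO loops enclosed it. For Pmaip1 the nearest anchor was 6.73 kb away in sham and 208 kb away in MCAO, and 3 and 1 loops enclosed it. With a window of 10 kb Pmaip1 therefore had 1 loop in sham and 0 in MCAO.

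The effector gene Bax (chromosome 7, 45461695 to 45466903, minus strand, gene ID 12028) had 1 loop in each library, and they were different ones. The sham loop, 11 PETs over 55.5 kb, joined the 5′ end of Bax to an anchor at the ends of Tulp2, Plekha4 and Ppp1r15a, the last of which encodes GADD34, a stress-induced subunit of the phosphatase that restores translation. The MCAO loop, 12 PETs over 242 kb, ended at Car11, Sphk2 and Dbp, a transcription factor gene of circadian output. Its Bax-side anchor was 15.0 kb wide and covered all of Bax and of Ftl1, the ferritin light chain gene, with ends of Gys1 and Dhdh within 2.5 kb of it. The sham anchor, 4.43 kb wide, was shared with Dhdh. No loop near the Bax to Ppp1r15a contact was listed in MCAO, where the nearest loop had its midpoints 177 kb and 159 kb away.

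Casp8 (chromosome 1, 58795233 to 58847503, plus strand, gene ID 12370) had 2 loops in sham, of 10 and 11 PETs, and 0 in MCAO. Among all genes 5.26% had at least 2 fewer loops in MCAO. One loop left the 5′ end and ran 575 kb to Cdk15, a kinase gene. The other left the 3′ end, shared with the neighbour Gm28802, and ran 242 kb to Ndufb3, a subunit gene of respiratory complex I. Both had as few PETs as the list allows or 1 more, and neither ranked above the median of the sham list by the authors' deposited hypergeometric p-value. The nearest MCAO anchor lay 17.0 kb from an end of Casp8, and 4 sham and 3 MCAO loops enclosed the gene. The window before the start that RefSeq gives, which the first loop's anchor covered, is shown as the contrast to the GC-rich Bcl2 window, on the plus strand at chr1:58802252-58802501.
Casp8: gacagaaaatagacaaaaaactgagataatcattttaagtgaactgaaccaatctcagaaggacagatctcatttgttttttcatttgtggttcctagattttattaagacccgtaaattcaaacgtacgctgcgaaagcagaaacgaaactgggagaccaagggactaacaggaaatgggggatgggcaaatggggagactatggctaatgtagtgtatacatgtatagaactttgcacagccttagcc
It had a G and C content of 39.6% and held no match to the searched letters. Casp9 (chromosome 4, 141793612 to 141815978), the initiator of the mitochondrial route, had no loop in either list. The nearest anchors were 57.6 kb away in sham and 38.7 kb in MCAO, and 0 and 1 loops enclosed it.

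Cdkn1a (chromosome 17, 29090979 to 29100722, plus strand, gene ID 12575) showed the largest difference of the 9 genes in number of loops, 1 in sham and 4 in MCAO. Among all genes, 3.03% had at least 3 more loops in MCAO. RefSeq gives Cdkn1a a pair of starts, and the windows before them are shown because the anchors differed in which of them they covered. The upstream start, at 29090979 after the window chr17:29090729-29090978, was covered by 0 sham and 2 MCAO anchors. The downstream start, at 29093769 after the window chr17:29093519-29093768, was covered by 1 sham anchor and all 4 MCAO anchors. The 2 MCAO anchors over the upstream start were 9.345 and 9.167 kb wide, against 5.262 kb for the sham anchor. The part of anchor width in which starts were covered was not tested. Capitals mark paired CATG letters, each the core of a p53 half-site, in the upstream window and GC boxes in the downstream one, both on the plus strand.
Cdkn1a, upstream start: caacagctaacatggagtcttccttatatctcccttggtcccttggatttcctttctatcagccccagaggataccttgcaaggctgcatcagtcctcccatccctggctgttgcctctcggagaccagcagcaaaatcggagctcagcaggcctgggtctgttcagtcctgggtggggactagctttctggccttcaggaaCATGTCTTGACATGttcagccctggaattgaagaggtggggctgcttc
Cdkn1a, downstream start: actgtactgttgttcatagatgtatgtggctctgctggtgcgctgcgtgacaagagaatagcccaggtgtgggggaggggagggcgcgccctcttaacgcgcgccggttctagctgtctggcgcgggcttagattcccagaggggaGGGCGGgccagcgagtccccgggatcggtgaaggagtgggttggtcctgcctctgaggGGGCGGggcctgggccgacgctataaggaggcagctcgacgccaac
The paired CATG letters, found in 0.490% of all windows, ended 34 bases before the upstream start. The downstream window held 2 GC boxes. Of the other genes' windows, those of Bbc3, which had no loop, held 5, 1 and 7 GC boxes at its 3 starts, those of Bcl2l11 2 and 3, that of Bax 2, that of Casp9, also with no loop, 4, and the 3 of Bcl2l1 held 0. The CTCF core stood in 1 of these windows, before the second start of Bbc3. These are matches of letters, and binding was not measured.

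The sham loop at Cdkn1a carried 14 PETs and ran 42.2 kb upstream from 29092456 to 29097718, inside the gene and 1.48 kb from its 5′ end, to 29048663 to 29057193. That partner lies between Srsf3, a splicing factor gene, and Trp53cor1 (29057474 to 29079126), the p53-induced long non-coding RNA known as lincRNA-p21. The MCAO loops carried 10, 11, 12 and 26 PETs, so the sham value lay within their range. Of the 4, 3 ran upstream as the sham loop did. The strongest, 26 PETs over 50.01 kb, ended at 29040255 to 29050789, at the near end of Srsf3, and the loop of 12 PETs, over 62.6 kb, ended at 29028925 to 29038120 at its far end. The loop of 10 PETs, over 32.8 kb, ended at 29057257 to 29066031 on Trp53cor1. The remaining loop, 11 PETs over 147 kb, ran downstream to 29237280 to 29248042 at an end of Cpne5, a copine gene.

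The sham loop had 2 counterparts in MCAO, with partner midpoints 7.41 kb and 8.72 kb away and gene-side midpoints 0.444 kb and 0.620 kb away. Set against the loop of 26 PETs the ratio of MCAO over sham was 1.60 (0.806 to 3.32), and against the loop of 10 PETs it was 0.616 (0.245 to 1.49). Both intervals held 1. The loop to the far end of Srsf3 had no counterpart, but its nearest sham loop was the same one, 0.998 kb away at the gene side and 19.4 kb away at the partner side. The loop to Cpne5 had no sham loop nearby, the closest being 77.3 kb away at the gene side. With a minimum of 12 PETs in MCAO the numbers were 1 and 2, with 15 PETs in both libraries they were 0 and 1, and among loops that rank above their list's median by the deposited p-value they were 1 and 1. The authors' deposited FDR was 0.03 for the loops of 12 and 26 PETs, 0.01 for the loop of 10 and 0 for all 19 others of the 22. Of all MCAO loops, 10.8% had more PETs than the loop of 26.

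**Figure D3:**
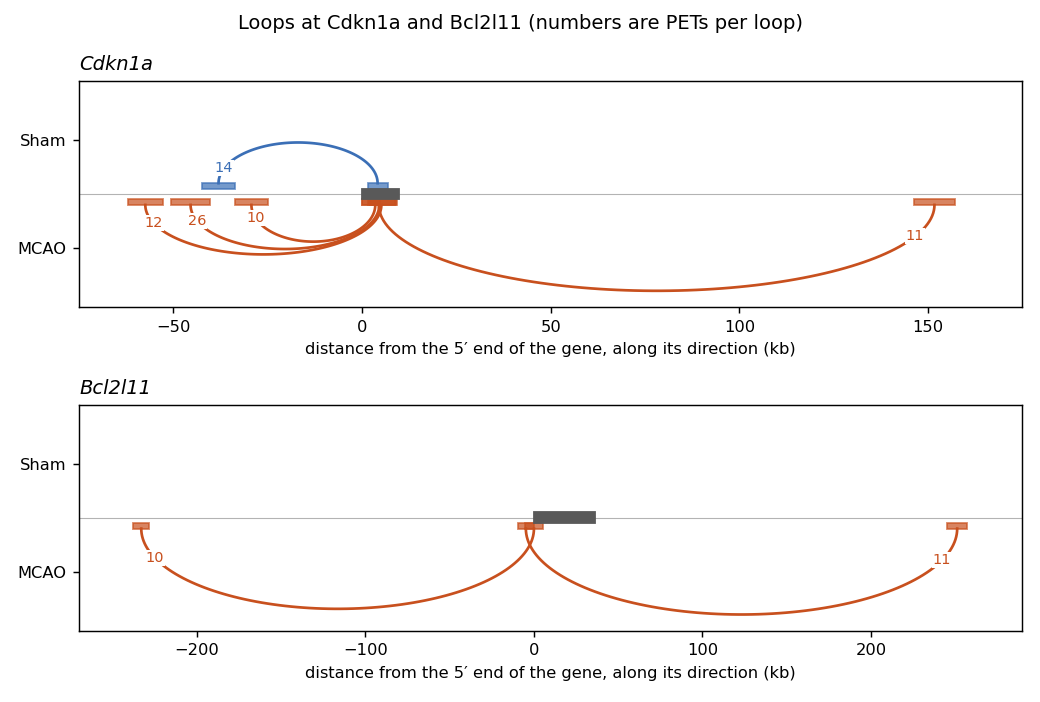
Loops at Cdkn1a (top) and Bcl2l11 (bottom) by distance in kb from the 5′ end of the gene, with sham arcs above and MCAO arcs below, PETs on each arc, anchors as coloured bars to scale and the gene in grey. At Cdkn1a 1 sham and 3 MCAO arcs end a short way upstream, and at Bcl2l11 the MCAO arcs run to either side while sham has none.

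Over all 22 loops the PETs ranged from 10 to 33 in sham, with a median of 21, and from 10 to 35 in MCAO, with a median of 12. Over all gene-end loops the medians were 13 and 14. Of the 5 sham loops with at least 21 PETs, 4 were at Bcl2 and 1 at Bcl2l1. Of the 6 counterpart pairs, the 3 at Bcl2 had ratios below 1 and the 1 at Bcl2l1 a ratio above 1, while those at Cdkn1a fell on both sides. The Cdkn1a pairs shared 1 sham loop, and in the pair with the ratio below 1 the partner anchors did not overlap. For 2 of the 6, both at Bcl2, the interval left out 1.

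**Figure D4:**
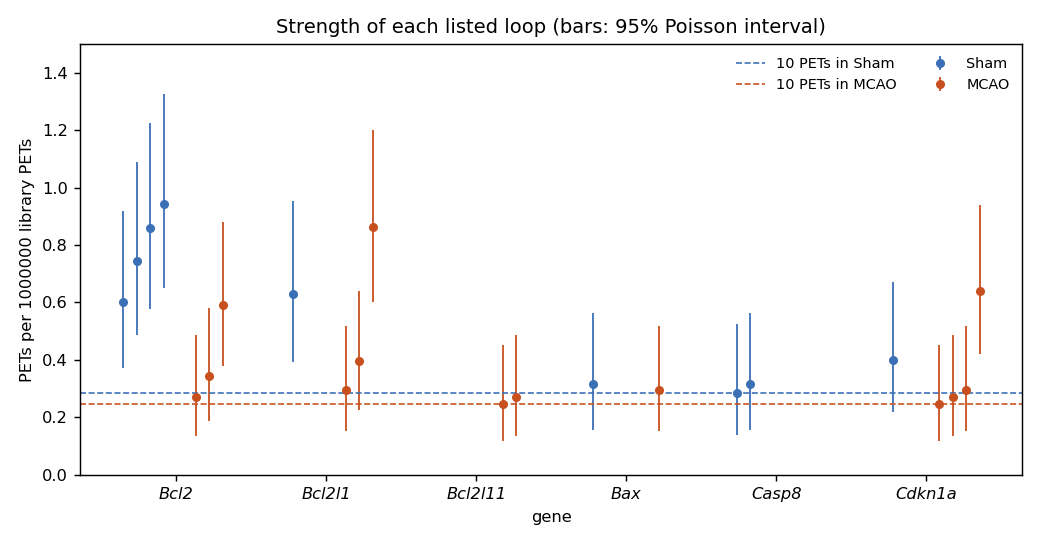
PETs per 1000000 library PETs (vertical axis) of every listed loop at each gene (horizontal axis), with 95% Poisson intervals of counting error. Dashed lines mark the listing minimum of 10 PETs in each library, 0.286 in sham and 0.247 in MCAO. Most MCAO loops and the Bax and Casp8 loops lie near these lines, while the 4 sham loops of Bcl2 and the strongest loops of Bcl2l1 and Cdkn1a lie above them.

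A further 80 genes of these pathways were counted in the same way. The sham list gave them 59 gene-loop pairs and the MCAO list 87. Over all genes the pairs were 15296 and 18573. More were counted in MCAO at 30 genes (37.5%) and fewer at 14 (17.5%), against 28.7% and 20.7% of all genes. The median difference was 0, as for all genes. With the MCAO minimum scaled for depth the pairs were 59 and 53, and over all genes 15296 and 12699. More were then counted at 14 pathway genes and fewer at 23, against 18.5% and 26.6% of all genes. This difference thus turned direction too, as it did over all genes. Neighbouring genes can share a loop, and the pairs are not independent.

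By role, the 13 death receptor and necroptosis genes went from 5 pairs to 15 from sham to MCAO. Of these genes 7 had more loops (53.8%) and 2 fewer (15.4%), beside 28.7% and 20.7% of all genes. With the MCAO minimum scaled for depth the pairs were 5 and 11. More were then counted at 6 genes and fewer at 2, beside 18.5% and 26.6% of all genes. With at least 15 PETs in both libraries the pairs were 3 and 6, and over all genes 6960 and 8963. More were then counted at 3 of the 13 genes and fewer at 2, beside 18.8% and 12.6% of all genes. Fadd, the adaptor that brings caspase-8 to death receptors, had 1 loop of 14 PETs in sham and 5 of 10 to 31 PETs in MCAO. Tnfrsf21, the gene of death receptor 6, had 1 of 10 PETs and 4 of 10 to 32 PETs. Of these MCAO loops 1 at each gene had a counterpart in sham. With the MCAO minimum scaled for depth Fadd had 1 and 4 loops and Tnfrsf21 1 and 3.

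Cell cycle arrest genes had 9 and 14 pairs, with more at 5 of 11 genes and fewer at 3, beside 28.7% and 20.7% of all genes. With the MCAO minimum scaled for depth they had 9 and 4, where 0 genes had more and 5 fewer, beside 18.5% and 26.6%. With at least 15 PETs in both libraries they had 4 and 2, so the direction turned under either minimum. The scaled minimum is raised in MCAO alone, and pairs over all genes turned with it too, to 15296 and 12699. At 15 PETs pairs over all genes were 6960 and 8963. Cdkn2c, which encodes the inhibitor p18 of the kinases CDK4 and CDK6, had the same numbers as Cdkn1a, 1 and 4, as did Tnfrsf21, a likeness over 2 libraries that 132 genes in all share. Its MCAO loops had 11 to 15 PETs, none had a counterpart, and 1 was left with the scaled minimum. Btg1, an antiproliferative gene, had 2 and 3 loops. Genes of the p53 and DNA damage response had 29 and 34 pairs, with more at 7 of 20 genes and fewer at 5, beside the same shares. Here too the direction turned with the scaled minimum, to 29 and 23 pairs, with more at 3 genes and fewer at 9. At 15 PETs the pairs were 16 and 20. Plk2, a p53-induced kinase gene, had 6 and 9 loops, of which 5 and 6 had a counterpart. Ccng1, a p53-induced cyclin gene, had 5 and 5 with 4 and 4 in counterpart pairs, and the stress gene Gadd45g 4 and 4 with 3 and 3. Zmat3, a p53-induced RNA-binding protein gene, had 3 and 2 with no counterparts.

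Among the remaining roles, BH3-only genes had 3 and 6 pairs with more at 3 of 7 genes and fewer at 0. Caspase and apoptosome genes had 4 and 8 with more at 5 of 15 and fewer at 3. Of all genes 28.7% had more and 20.7% fewer. Anti-apoptotic family genes had 1 and 2 with more at 1 of 6, and the effector genes Bak1 and Bok had 2 and 4 together. Bak1 itself, the partner of Bax in opening the membrane, had 2 and 3 loops, with the strongest at 22 PETs in sham and 47 in MCAO. Caspase inhibitor genes had 6 and 4 pairs, with fewer at 1 of 6 genes and more at 0. With the scaled minimum the pairs were 3 and 4 for BH3-only genes, 4 and 6 for caspase and apoptosome genes, 1 and 1 for anti-apoptotic genes, 2 and 2 for effector genes and 6 and 2 for caspase inhibitors. Over all genes the pairs with that minimum were 15296 and 12699. The inhibitor gene with fewer loops in the full lists was Birc5, which encodes survivin and had 2 and 0 loops, the numbers of Casp8 and of 519 genes in all.

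**Figure D5:**
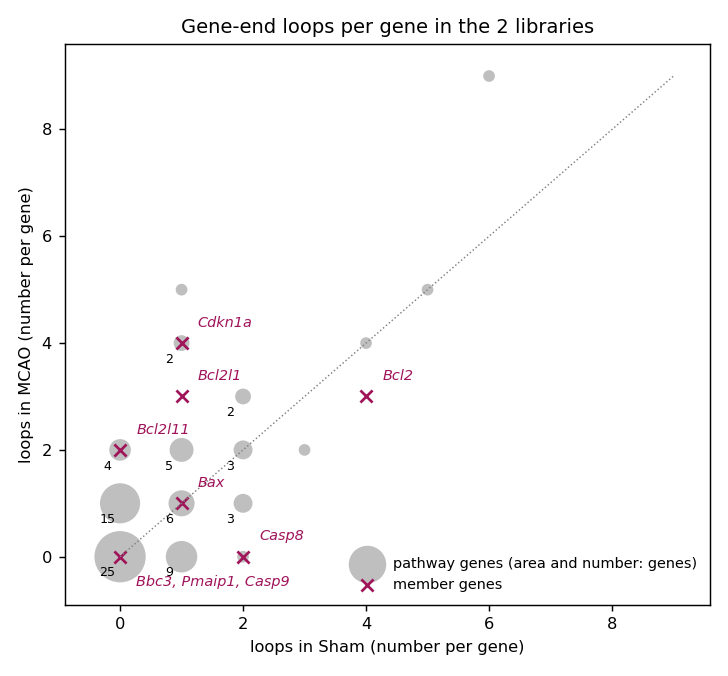
Gene-end loops per gene in sham (horizontal axis) against MCAO (vertical axis). Grey circles are the 80 pathway genes, with area and number giving how many share a position, crosses are the 9 genes described here and the dotted line marks equal numbers. Cdkn1a, Bcl2l1 and Bcl2l11 lie above the line, Bcl2 and Casp8 below it, and 25 pathway genes lie at 0 in both libraries.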

How the data were processed

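Hi-C, a proximity ligation assay read by paired-end sequencing, was performed on frozen cortex, with 1 loop list for sham and 1 for MCAO, grouped by sample title. Per the submitters' processing notes, the tools were Bowtie2 and HiC-Pro (no versions named) and the build was mm10. The loop calling program is not given in the sources used here, and neither is any pooling of cortices. PETs per loop and reads per anchor are counts that the authors deposited without scaling. A further deposited signal, density, scales PETs by anchor length and depth, and solving it for depth returned 1 total for all loops of a library, used here as its depth. The p-values per loop and the FDR, at most 0.05, are the authors' deposited values and served to rank loops within a list.

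Gene positions and promoter windows (250 bases before to 50 after a start) came from RefSeq tables on GRCm38.p6, the assembly of mm10, and 8 of 9 members matched a window. Anchor coordinates are given as deposited. Counterparts allowed 1 anchor width, using the wider loop. PETs have exact Poisson intervals, shares Clopper-Pearson intervals, ratios exact binomial intervals and medians order-statistic intervals. Duplicate molecules among PETs were not assessed. Named pathway genes differed by at least 3 loops or had the most loops in all (5 genes, with ties), or had the numbers of Cdkn1a or Casp8. Partner genes had an end within 2.5 kb of the partner anchor. Non-coding genes and neighbours were named after their positions were seen. The members and lists were chosen with earlier results of these data known. Counting and matching were tested on simulated data. Alternatives covered the window, the gene body, the PET minimum, the deposited p-value and the matching rule. Python 3.11.15 with numpy 2.4.6, pandas 2.3.3 and scipy 1.17.1 was used.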

Additional observations from a re-analysis of the deposited data

How the results depend on the processing

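Median spans stayed within their intervals under every alternative tried, but these intervals take in most of the range of the loops. Among loops ranked above their list's median by the deposited p-value, the median span was 149 kb in sham and 164 kb in MCAO. Their order thus turned at this setting. With at least 15 PETs the medians were 293 kb and 91.1 kb. The other results moved as follows. With at least 15 PETs per loop, member loops numbered 5 in sham and 4 in MCAO, of which 2 and 1 had a counterpart, and members with fewer loops in MCAO numbered 1. The pathway pairs were then 29 (sham) and 38 (MCAO), and over all genes 6960 and 8963. Of the 80 pathway genes 14 had more in MCAO and 13 fewer, beside 18.8% and 12.6% of all genes. With the MCAO minimum scaled for depth, 8 MCAO loops were left at members, 3 of them with a counterpart, and the MCAO pathway pairs were 53, where 14 genes had more and 23 fewer. Among loops ranked above their list's median by the deposited p-value, 8 MCAO loops were left at members. The pathway pairs were 36 (sham) and 48 (MCAO), and 18 genes had more in MCAO and 13 fewer. The share of all genes was not counted at this setting. With no window, 3 sham member loops had a counterpart and 1 member had fewer loops in MCAO, and 1 did with any part of the gene body counted. Within 0.5 anchor width, 2 sham and 2 MCAO loops had a counterpart, and with overlap of the anchors required instead, 5 and 4 did. At Bcl2 the difference, MCAO minus sham, was -1 as reported and 1 with a window of 10 kb. These alternatives remove or add loops by their own construction. No paired analysis was possible because each group has 1 library. Depth limits what can be said of MCAO loops of 10 and 11 PETs, which the scaled minimum removes.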
